A study of Mus musculus with 4 samples.

Results

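The genes described here are the CDK inhibitors of the Cip/Kip family (Cdkn1a, Cdkn1b and Cdkn1c), those of the INK4 family (Cdkn2a, Cdkn2b, Cdkn2c and Cdkn2d), and Trp53 with its negative regulator Mdm2. They are 9 of the 49554 genes of the gene table on the autosomes and X. Chromatin accessibility around them was measured by ATAC-Seq, in which a transposase cuts open chromatin and inserts sequencing adapters, so that sites with many insertions appear as peaks. Peaks of different libraries that shared at least 1 bp were joined into a region. Every region that overlapped one of these genes, or the 5000 bp on either side of it, was then taken. This gave 67 regions of 337776 in all, of which 29 held a peak in all 4 libraries.

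The samples were 2 control and 2 KO libraries of sorted bone marrow cells. The labels name the cells long-term hematopoietic stem cells (LT-HSCs) and the control genotype WT, whereas the study's text describes hematopoietic stem and progenitor cells and Cpt1a fl/fl controls. KO mice were Cpt1a fl/fl mice that carried Vav1-Cre, which deletes the gene throughout the hematopoietic system, and all were adult mice of both sexes on a C57BL/6 background, with no treatment. Cpt1a encodes the enzyme of the outer mitochondrial membrane that lets long-chain fatty acids into beta-oxidation. Nothing in the labels says that the libraries of a genotype came from separate animals, so p-values measure only the spread between these libraries, which may be technical.

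CDK inhibitors hold a cell in G1 or out of the cycle. INK4 proteins bind CDK4 and CDK6 and keep them from D-type cyclins, and Cip/Kip proteins bind assembled cyclin-CDK complexes, so that the RB family stays unphosphorylated and E2F target genes stay off. p53, the product of Trp53, is a transcription factor that answers DNA damage and other stress, Cdkn1a and Mdm2 are among its best known targets, and MDM2 in turn marks p53 for degradation. Most LT-HSCs are quiescent, and p57 (from Cdkn1c), p27 (from Cdkn1b) and p53 are known for their part in that state.

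The sequences before 5 annotated gene starts are shown because the results below turn on them: both starts of Cdkn1a, of which 1 had no peak, both starts of Cdkn2a, which give rise to different proteins, and the start of Cdkn2d, where the peak with the highest mean percentile by −log10 p of all 9 genes lay. Each is the 250 bases before the start, 5′ to 3′ on the gene's strand, from RefSeq on GRCm38.p6 (the assembly called mm10 in the processing notes). Capitals mark the motifs found by a search of both strands, which were a p53 site of 20 bases (in the Cdkn1a upstream start), the GC box GGGCGG or its complement CCGCCC, the CCAAT box or its complement ATTGG (in Cdkn2d) and the E2F sequence TTTCCCGC (in the Cdkn2a upstream start).
Cdkn1a upstream start, chr17:29090729-29090978, plus strand: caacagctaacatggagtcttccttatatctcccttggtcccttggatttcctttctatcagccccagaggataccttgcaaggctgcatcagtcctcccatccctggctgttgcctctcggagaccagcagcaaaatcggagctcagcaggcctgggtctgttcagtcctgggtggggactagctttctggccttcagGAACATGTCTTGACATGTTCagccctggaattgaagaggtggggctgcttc
Cdkn1a downstream start, chr17:29093519-29093768, plus strand: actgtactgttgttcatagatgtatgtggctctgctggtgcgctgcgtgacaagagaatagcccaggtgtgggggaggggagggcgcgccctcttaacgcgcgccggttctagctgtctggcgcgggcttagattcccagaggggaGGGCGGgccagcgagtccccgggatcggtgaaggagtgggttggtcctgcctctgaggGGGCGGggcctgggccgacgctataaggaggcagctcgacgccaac
Cdkn2a upstream start (p19Arf), chr4:89294620-89294869, minus strand: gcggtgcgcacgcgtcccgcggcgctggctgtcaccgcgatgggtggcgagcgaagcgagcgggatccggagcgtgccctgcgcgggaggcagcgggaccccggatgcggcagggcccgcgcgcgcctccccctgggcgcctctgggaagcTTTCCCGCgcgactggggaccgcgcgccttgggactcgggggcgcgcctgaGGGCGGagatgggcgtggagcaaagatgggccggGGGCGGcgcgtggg
Cdkn2a downstream start (p16Ink4a), chr4:89282193-89282442, minus strand: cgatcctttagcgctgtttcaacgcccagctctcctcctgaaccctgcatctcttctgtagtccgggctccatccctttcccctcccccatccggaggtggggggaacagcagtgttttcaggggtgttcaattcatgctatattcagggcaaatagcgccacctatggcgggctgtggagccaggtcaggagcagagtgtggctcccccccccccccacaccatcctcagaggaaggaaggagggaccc
Cdkn2d start, chr9:21291210-21291459, minus strand: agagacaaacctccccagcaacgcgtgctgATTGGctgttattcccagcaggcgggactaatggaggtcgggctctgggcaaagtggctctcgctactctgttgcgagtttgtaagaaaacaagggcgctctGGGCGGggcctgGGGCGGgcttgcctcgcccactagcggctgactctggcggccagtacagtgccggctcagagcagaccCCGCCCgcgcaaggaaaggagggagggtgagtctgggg

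The 4 peak lists held between 240940 and 277594 summits each and gave no read counts, so the depth behind each value is unknown and no counting interval can be given. A peak's fold is its height at the summit divided by the background that the peak caller estimated in that library. Its percentile is the share of the intervals of the same library whose strongest summit has an equal or lower −log10 p, so that 100 is the strongest. In every group of 4 values below, the order is control 1, control 2, KO 1 and KO 2, with n = 2 libraries per genotype. Of the LT-HSC markers (Procr, Hlf, Mecom, Slamf1, Kit, Fgd5 and Gata2), 7 of 7 had a region in all 4 libraries, and the median percentile of their strongest regions was 95.6. T cell, B cell and erythroid markers also had open regions, with medians of 93.0, 90.7 and 92.6, above those of granulocyte genes (74.4) and of genes not used in blood (77.9). Ly6g and Cd8a had no region in all 4 libraries and are not in these medians. The lists overlapped gene by gene, so the medians do not order the cell types. Percentiles ran from 83.5 to 97.6 for LT-HSC, 66.3 to 97.7 for T cell and 73.5 to 98.7 for B cell markers. They ran from 33.8 to 99.4 for erythroid, 67.2 to 85.9 for granulocyte and 68.8 to 89.8 for genes not used in blood. The strongest region of the targeted gene Cpt1a had percentiles of 96.5, 96.4, 96.4 and 95.2; the positions of the floxed exons were not used here, so this does not check the genotype labels.

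A peak overlapped the start in all 4 libraries for 10 of the 11 annotated start windows of the 8 genes with an entry (250 bases before to 50 after each start), against 45.5% of 32619 such windows in the genome. Cdkn1c had no entry. The exception was the upstream start of Cdkn1a, where no library had a peak and the nearest one was 2564, 2565, 2584 and 2471 bp away. The p53 site before this start lies at chr17:29090928-29090947, from 51 to 32 bases before the start, and has 1 base off the consensus. A site of this kind, with at most 1 mismatch in 20 bases, was in 29 of 32619 windows (0.0889%), and 8 of these 29 windows (27.6%) had a peak in all 4 libraries. The search with 1 mismatch was chosen after this sequence had been seen, since the exact consensus was in 3 windows, none of them of these genes. Among the 11 windows, 8 held the GC box, against 35.9% of all windows, 6 held CCAAT (37.6%), 2 held the E box CACGTG (7.2%) and 1 held TTTCCCGC (1.08%); TTTGGCGC (0.518%) and the ETS sequence CCGGAAGT (3.91%) were in none of them. Since 10 of the 11 windows were open in all 4 libraries, the closer comparison is with the 14845 windows of the genome that were. Of those, 9654 held the GC box, 5394 held CCAAT, 1528 held the E box and 293 held TTTCCCGC. Of all windows that held a GC box, 82.4% had a peak in all 4 libraries. The 250 bases before the upstream Cdkn1a start held 2 CpG dinucleotides and those before the upstream Cdkn2a start held 40, beside medians of 2 in windows without a peak and 16 in windows open in all libraries.

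**Figure D1:**
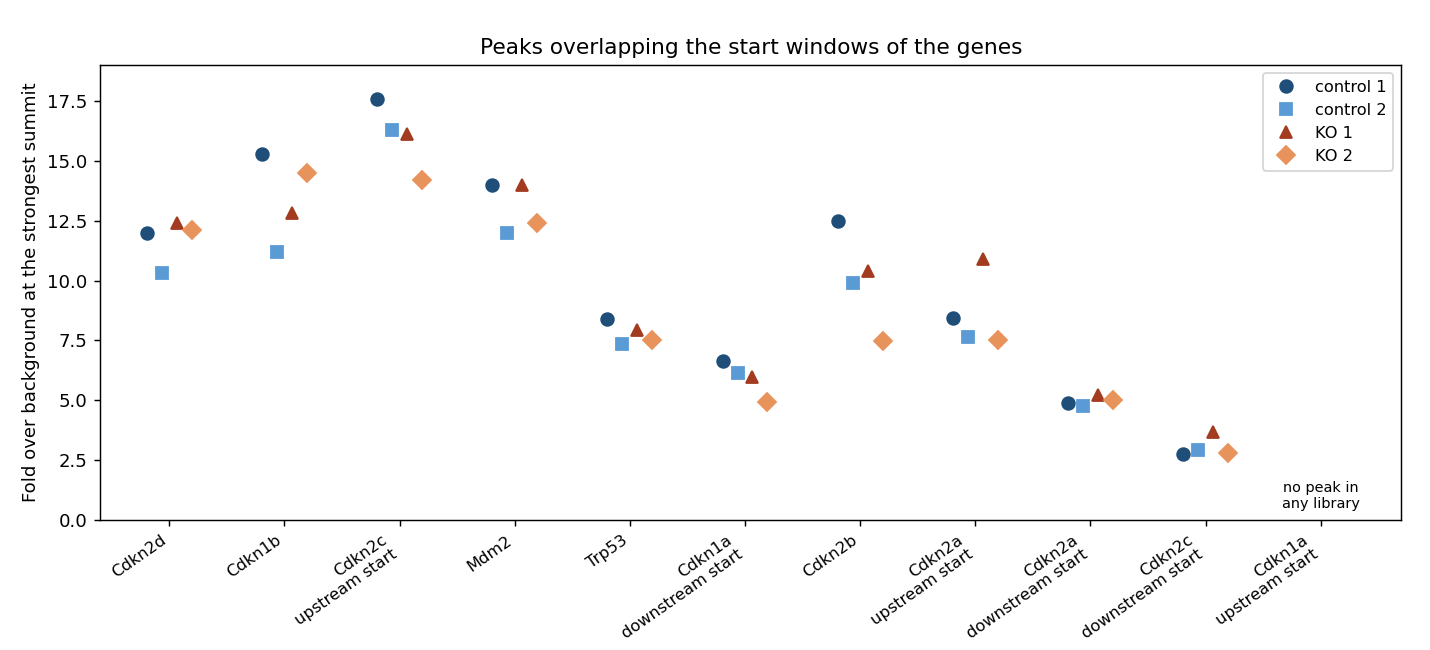
Fold over background (y axis) of the strongest summit in the peak overlapping each annotated start window (x axis, ordered by mean percentile), 1 point per library. The upstream Cdkn1a start had no peak in any library, and the folds of the Cdkn2c upstream start ran from 14.2 to 17.6.

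Cdkn1a encodes p21, the Cip/Kip inhibitor that p53 induces. Its strongest region, chr17:29094868-29095920, lay 1.8 kb inside the gene from the downstream start, with percentiles of 97.4, 98.3, 98.7 and 97.9 and folds of 11.7, 12.9, 15.0 and 12.8. The libraries of both genotypes overlapped. Its log2 difference in fold, KO minus control, was 0.24 ± 0.15 (SE; limma, 95% interval −0.08 to 0.57, Benjamini-Hochberg adjusted p = 0.753). The region at the downstream start itself, chr17:29093499-29094181, was weaker, with folds of 6.64, 6.15, 5.96 and 4.94. Both KO libraries were below both controls there, by little, though not after normalization, and the log2 difference of −0.12 ± 0.27 (SE, limma) was smaller than its error. A region 5.5 kb inside the gene was weak in every library, with folds between 2.25 and 2.71.

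Cdkn1b encodes p27. Its start region, chr6:134919957-134920935, was strong in every library, with percentiles of 98.4, 96.2, 97.4 and 98.4 and folds of 15.3, 11.2, 12.8 and 14.5. The KO libraries lay between the controls, and the log2 difference was 0.13 ± 0.17 (SE, limma, adjusted p = 0.903). A second region of about the same strength, chr6:134927863-134929371, lay 8.4 kb past the start, where the noncoding gene Lockd is annotated, with percentiles of 98.0, 97.1, 97.7 and 96.7. The weak region chr6:134922906-134923043 inside the gene had folds of 2.11, 2.90, 2.08 and 1.95, lower in both KO libraries than in both controls. Its log2 difference was −0.30 ± 0.21 (SE, limma, 95% interval −0.74 to 0.14, adjusted p = 0.779), within the spread between libraries. It came to −0.18 with median centring, to −0.09 without control 2 and to −0.01 when regions missing from some libraries were fitted as well, and to −0.80 with the −log10 p in place of the fold. A weaker site before the gene, chr6:134916607-134916741, had a peak in the 2 control libraries only, with folds of 2.35 and 1.86 and −log10 q of 3.17 and 1.01.

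Cdkn1c encodes p57, an imprinted Cip/Kip inhibitor. Its strongest region, chr7:143460926-143461553, covered the end of the gene at the higher coordinate, with percentiles of 92.7, 94.1, 95.4 and 93.8 and folds of 9.07, 11.3, 11.5 and 9.82. The genotypes overlapped, and the log2 difference was 0.16 ± 0.19 (SE, limma, adjusted p = 0.884). Past this end, 3 shared regions lay within the predicted gene Gm33663, and at all 3 the percentiles of both KO libraries were above those of both controls. The farthest of them, chr7:143465996-143466762, reached into the window only in control 2. Had only peaks within the window been joined, it would not count among the 29 shared regions. The one with the largest log2 difference of all 29 regions was the short peak chr7:143464012-143464166, whose folds were 2.28, 2.46, 3.02 and 3.13 and percentiles 47.7, 48.3, 67.8 and 65.7. Its log2 difference of 0.40 ± 0.24 (SE, limma, 95% interval −0.09 to 0.90) had an unadjusted p of 0.104 and an adjusted p of 0.723 (limma, Benjamini-Hochberg), so it did not pass the test. The difference came to 0.50 with median centring and to 0.80 with the −log10 p in place of the fold. It was 0.53 when regions missing from some libraries were fitted as well, and 0.36 to 0.43 with a library left out.

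Cdkn2a carries the starts of 2 unrelated proteins, p19Arf, which inhibits MDM2, and p16Ink4a, which inhibits CDK4 and CDK6. Around p19Arf the region chr4:89294350-89295836, which also overlaps the predicted gene Gm12610, had percentiles of 85.2, 80.2, 91.4 and 85.6 and folds of 8.42, 7.65, 10.9 and 7.50. KO 1 was the highest and KO 2 had the lowest fold, and the log2 difference was 0.28 ± 0.22 (SE, limma, 95% interval −0.18 to 0.74, adjusted p = 0.813), and 0.07 without KO 1. At p16Ink4a the region chr4:89282029-89282459 was weaker in every library, with percentiles of 67.3, 61.7, 71.7 and 71.5 and folds of 4.87, 4.74, 5.21 and 5.02. Each library thus had a stronger peak at the p19Arf start than at the p16Ink4a start. The region chr4:89276288-89276882, 18.2 kb inside the gene, had folds of 5.03, 4.05, 6.37 and 4.41, with a log2 difference of 0.33 ± 0.30 (SE, limma, adjusted p = 0.84), and 0.12 without KO 1. All 3 shared regions of Cdkn2a had a log2 difference above 0, and none of the 3 passed the test.

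Cdkn2b, next to Cdkn2a, encodes p15Ink4b. Its start region chr4:89310369-89311285, which also overlaps the predicted gene Gm12610, had percentiles of 92.1, 88.2, 90.7 and 86.1 and folds of 12.5, 9.89, 10.4 and 7.49. The lowest value was that of KO 2, KO 1 lay between the controls, and the log2 difference was −0.24 ± 0.20 (SE, limma, 95% interval −0.67 to 0.18, adjusted p = 0.828). It was −0.08 without control 1 and −0.07 without KO 2. Cdkn2c encodes p18Ink4c. At its upstream start the region chr4:109665636-109667299 had the highest mean fold among the strongest regions of the 9 genes (16.1), with folds of 17.6, 16.3, 16.1 and 14.2, at percentiles of 98.2, 97.4, 97.6 and 96.7. Both controls had a higher fold than both KO libraries, with a log2 difference of −0.12 ± 0.13 (SE, limma, 95% interval −0.38 to 0.15). Its downstream start had a weak separate peak, with folds of 2.76, 2.93, 3.67 and 2.79. Cdkn2d encodes p19Ink4d, and its start region chr9:21290869-21291782 ranked highest of all by −log10 p, with percentiles of 99.8, 98.7, 99.8 and 99.7. The summits in the 4 libraries lay within 3 bp of each other. Its folds were 12, 10.3, 12.4 and 12.1, with both KO libraries above both controls by little, while the percentiles overlapped. The log2 difference was 0.22 ± 0.17 (SE, limma, adjusted p = 0.799), with values from 0.12 to 0.34 when a library was left out. A second Cdkn2d region, 3.1 kb past the start, overlapped the neighbouring gene Kri1.

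The strongest region in the window of Trp53, chr11:69578992-69579651, lay 1.0 kb before its start, inside Wrap53, the gene that overlaps Trp53 head to head. Its percentiles were 97.4, 96.8, 98.0 and 97.3 and its folds 11.2, 10.6, 12.6 and 10.6, with a log2 difference of 0.17 ± 0.17 (SE, limma, adjusted p = 0.863). The peak at the Trp53 start had folds of 8.40, 7.35, 7.95 and 7.53 and also overlapped Wrap53. Peaks there cannot be assigned to 1 of the 2 genes. A region inside Trp53, chr11:69581144-69581655, had folds of 5.52, 5.98, 6.06 and 7.63, both KO libraries above both controls, with KO 2 apart from the rest. Its log2 difference was 0.36 ± 0.27 (SE, limma, 95% interval −0.20 to 0.92, adjusted p = 0.794), and 0.13 without KO 2.

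Mdm2 encodes the ubiquitin ligase that turns p53 over. Its start region chr10:117709939-117711125 had percentiles of 96.4, 94.8, 96.4 and 95.7 and folds of 14, 12, 14 and 12.4. The lowest folds were those of control 2 and KO 2, and the log2 difference was 0.10 ± 0.16 (SE, limma, adjusted p = 0.92). A site inside the gene, chr10:117697600-117697724, had a peak in the 2 controls only, with folds of 2.27 and 2.97 and −log10 q of 0.403 and 1.70. The shared region 25.9 kb past the start lay in the neighbouring gene Cpm.

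**Figure D2:**
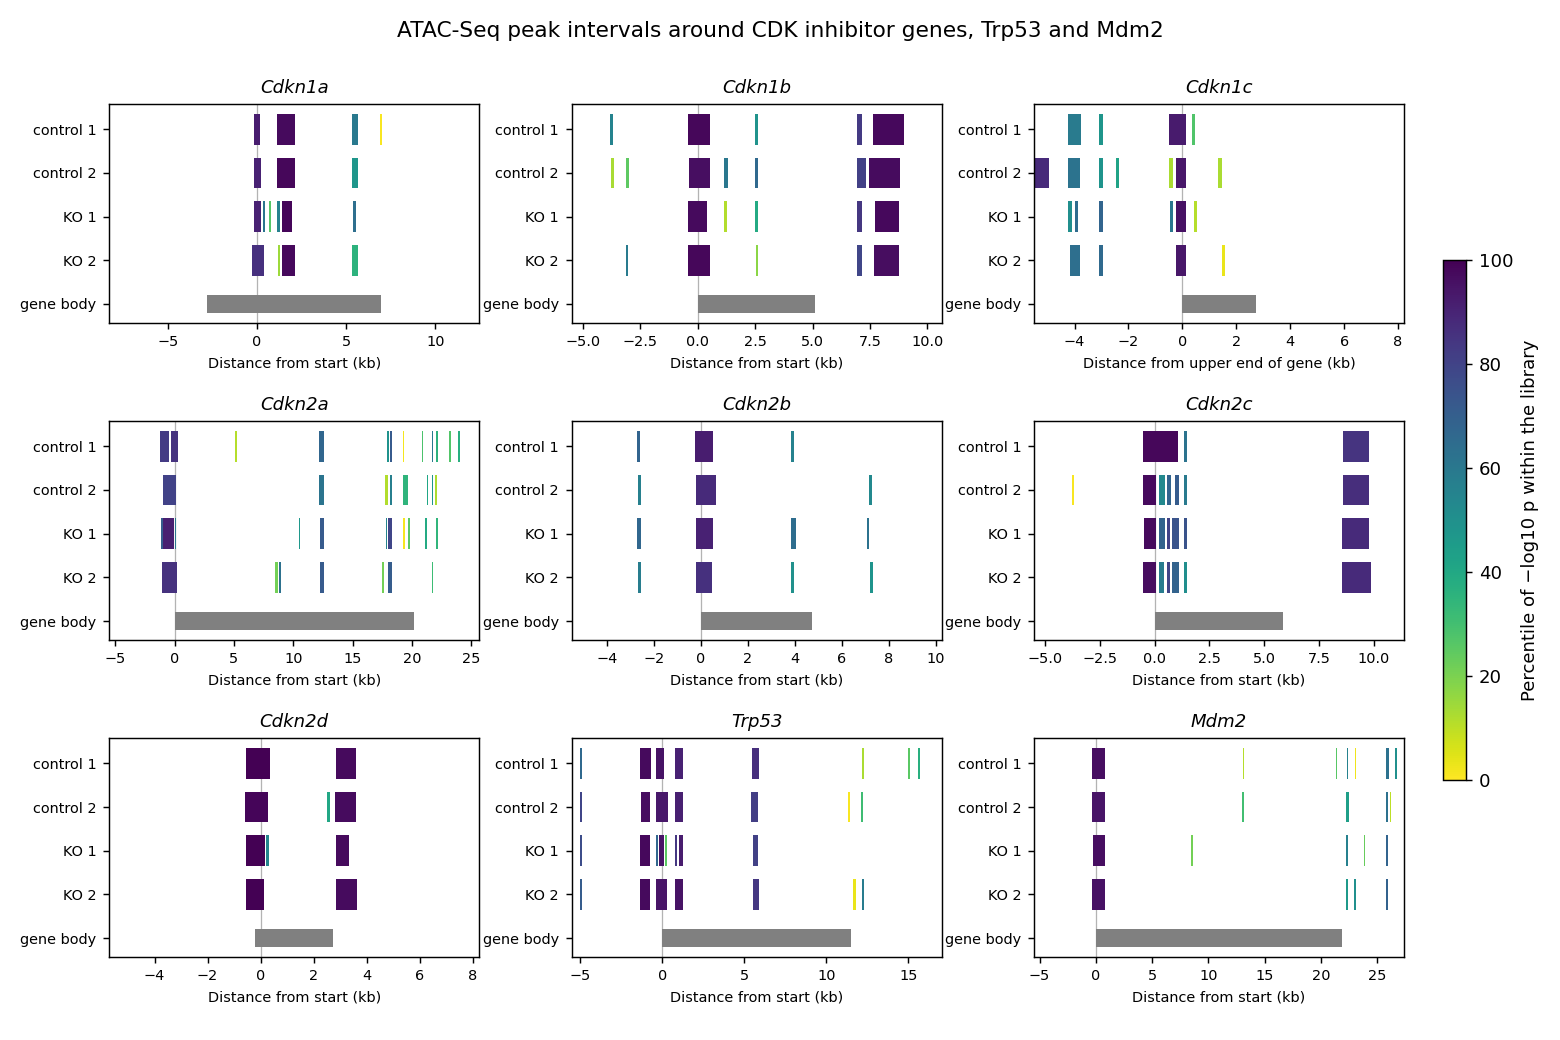
Peak intervals of each library around the 9 genes, by distance from the annotated start with the strongest peak (x axis, kb; for Cdkn1c from the gene's end at the higher coordinate, as no start was given), with color for the percentile within the library and the gene body in gray. Intervals narrower than 0.12 kb are drawn at that width. Strong intervals (dark) sat at the same places in all 4 libraries, and most of those seen in only 1 library were pale. The dark interval at the left edge of Cdkn1c in control 2 belongs to a region with a peak in all 4 libraries, which reached the window in that library alone.

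By the mean percentile of its strongest region, the order of the genes was Cdkn2d (99.5), Cdkn1a (98.1), Cdkn1b (97.6), Cdkn2c (97.5), Trp53 (97.4), Mdm2 (95.8), Cdkn1c (94.0), Cdkn2b (89.3) and Cdkn2a (85.6). The ranges over the 4 libraries of neighbours in this order overlapped, except between Trp53 and Mdm2 and between Cdkn1c and Cdkn2b. Those of Cdkn2d and Cdkn1a met only at 98.7. Compared within each library, Cdkn2d was above Cdkn1a and Mdm2 above Cdkn1c in all 4. The order by mean fold differed, with Cdkn2c first (16.1) and Cdkn2d in place 5 (11.7). Cdkn2b and Cdkn2a were last by either measure.

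**Figure D3:**
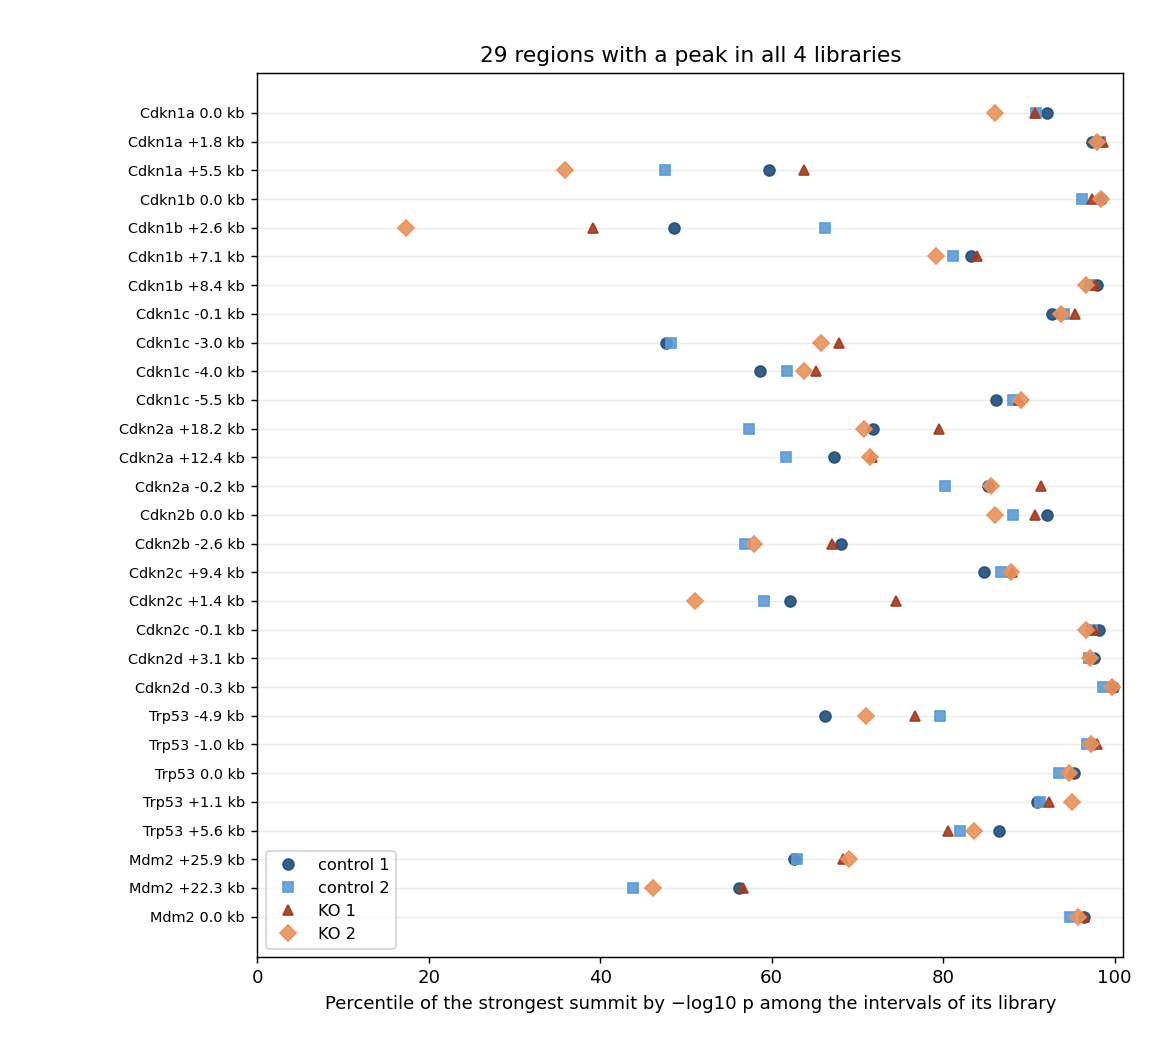
Percentile of the −log10 p within each library (x axis) of the 29 regions with a peak in all 4 libraries, named by gene and by the distance of the summit from the strongest start, 1 point per library. The points ran from 98.7 to 99.8 for Cdkn2d at its start and from 17.3 to 66.2 for Cdkn1b at 2.6 kb; percentiles near 100 are bounded, so spreads on this scale do not compare strong with weak regions.

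The question the design puts to these genes is whether the sites open in KO cells differ from those in control cells. Of the 43 regions found in 2 or more libraries, 29 (67.4%) had one in all 4, against 58.4% of the 137553 such regions of the genome. No region was held by both KO libraries and neither control (0 of 43), where the share in the genome was 3.47%. The 2 regions held by both controls alone, those of Cdkn1b and Mdm2 given above, were 4.65% of the 43, beside 6.05% in the genome. When each list was limited to its 100000 strongest summits, 22 regions were found in 2 or more libraries. Of these 22, 2 were in both KO libraries only and none in the controls only (genome, 3.11% and 2.75% of 59223). The 2 in KO only were the p16Ink4a start of Cdkn2a and the region near Mdm2 that lies in Cpm, both of which had a peak in all 4 full lists. With 1 library left out, a region counts as held by 1 genotype when a single library stands for it. The count for KO was then 1 without control 1, 0 without control 2, 4 without KO 1 and 7 without KO 2, and that for control was 7, 11, 4 and 4. These were of 62, 62, 61 and 64 regions. Over the genome the counts rose as well, to 8951, 8645, 61122 and 60646 for KO from 4778. For control they rose to 46122, 63662, 17407 and 14089 from 8325. Shares of regions in at least 2 libraries can be given only where the genotype kept both libraries. For KO, without control 1 and control 2, they were 1 of 43 and 0 of 35, beside 8951 of 120093 and 8645 of 120753. For control, without KO 1 and KO 2, they were 4 of 40 and 4 of 39, beside 17407 of 120395 and 14089 of 124091. The other counts rest on a single library, and no genome share is given for them. The 24 regions seen in a single library were weak, with folds of 1.74 to 4.07 and a median percentile of 25.6, whereas the 29 shared regions had folds of 1.95 to 17.6 and a median percentile of 86.4. Over these 29 regions the distance between the outermost summits of the 4 libraries had a median of 58 bp, beside 50 bp for all shared regions.

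No shared region of these genes passed the test for a difference in fold between genotypes (0 of 29). Of the 80271 shared regions of the genome 0 did (0%, limma, Benjamini-Hochberg adjusted p under 0.05). The study's own test, on reads, reported peaks with higher and with lower accessibility in KO. The 0 belongs to the test of the fold in the peak lists and does not show that accessibility was unchanged. At an unadjusted p under 0.05, limma gave 7.63% of all shared regions and 0 of the 29. The log2 differences of the 29 ran from −0.30 to 0.40 with a median of 0.11, and 22 of 29 (75.9%) were above 0, against 50.7% of all regions. Regions of the same gene share their libraries and neighborhood, so this count is a description. It was 23 with median centring (45776 of all 80271) and 18 with the −log10 p in place of the fold. Without control 1, control 2, KO 1 and KO 2 it was 22, 17, 19 and 21. The bounds of the 95% intervals ran from −0.74 to 0.95, the upper of which is a 1.93-fold difference. For the normalized fold in the main fit, each interval thus leaves out a difference of 1 on the log2 scale in either direction. This covers the fold alone. With the −log10 p, differences were −0.80 (Cdkn1b at 2.6 kb) and 0.80 (Cdkn1c at −3.0 kb). The median SE over all shared regions was then 0.467, beside 0.265 for the fold. Smaller differences of either sign lie within the intervals of the fold. With 2 libraries against 2, an exact permutation test of a single region cannot give a two-sided p below 0.333.

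**Figure D4:**
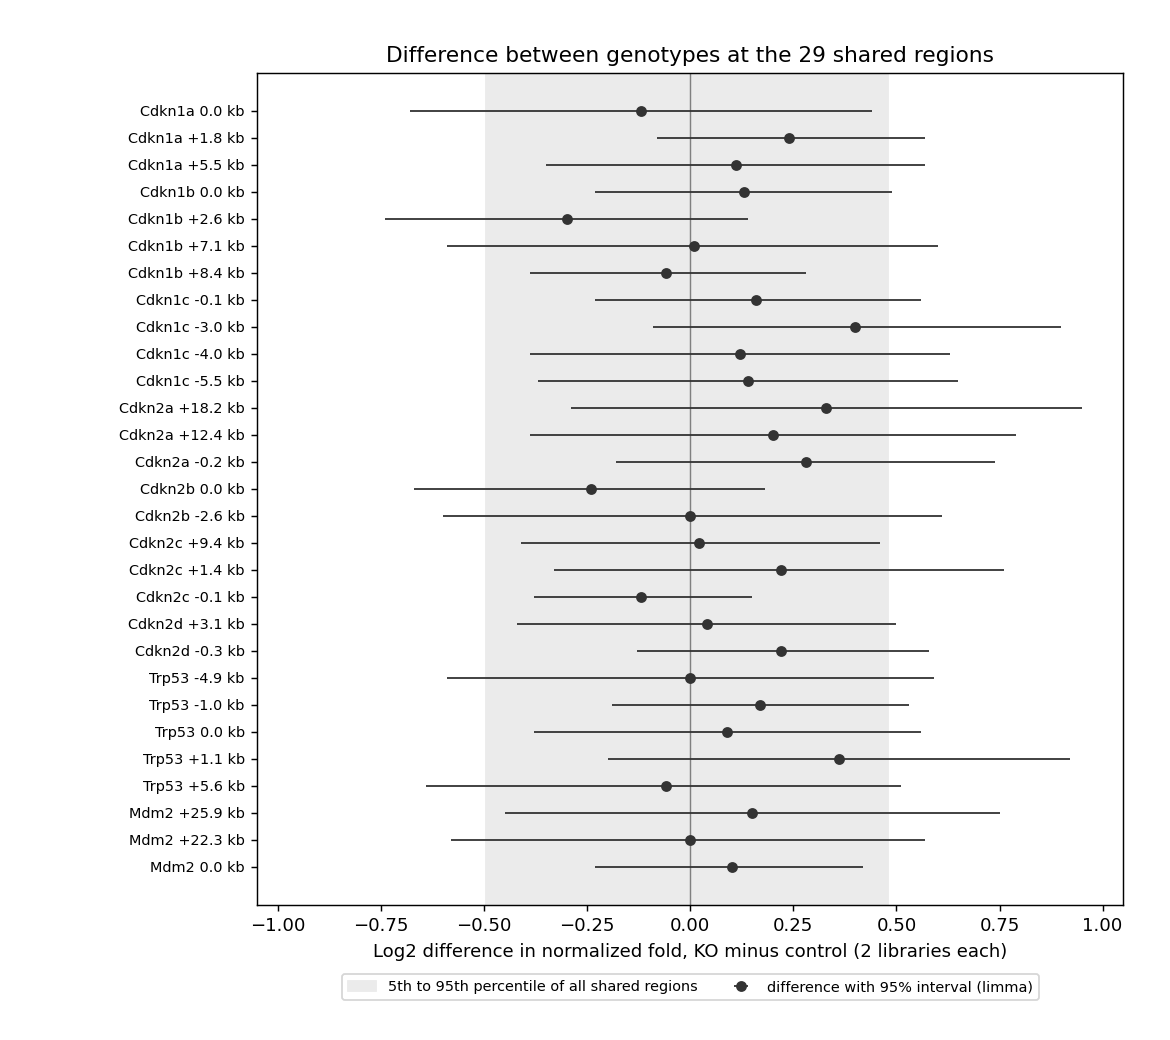
Log2 difference in quantile-normalized fold, KO minus control (x axis), of the 29 shared regions, with 95% intervals from limma (bars) and the 5th to 95th percentile of all 80271 shared regions (gray). All intervals include 0, and the differences run from −0.30 (Cdkn1b at 2.6 kb) to 0.40 (Cdkn1c at −3.0 kb).

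By rank within the library, 8 of 29 regions (27.6%) had both KO libraries above both controls, beside 22.1% of all shared regions, and 2 (6.9%) had both below, beside 15.2%. This balance depended on what was ranked. With each summit ranked in place of each interval, 3 regions (10.3%) were higher and 5 (17.2%) lower in both KO libraries, beside 15.6% and 22.4% of all regions, so that the direction turned for these genes as for the genome. With intervals ranked by the fold in place of the −log10 p, 11 were higher and 1 was lower, beside 22.5% and 14.9% of all regions. The share of summits whose −log10 q reached 5 was 42.5%, 46.8%, 40.5% and 35.1% in the 4 libraries, and its part in these ranks was not tested.

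The genes that CDK inhibitors act on were taken as a list of 22 G1 cyclins, CDKs, RB family members, E2F factors and their partners. They had 105 shared regions, of which 0 passed the test and 56 (53.3%) had a log2 difference above 0, with a median of 0.02. At an unadjusted p under 0.05, limma gave 1 region higher and 1 lower in KO, which is 1.9% of the 105, beside 7.63% of all shared regions. The largest median differences were those of Lin9 (0.25), a subunit of the DREAM complex that represses cell-cycle genes, E2f3 (0.19), Ccnd2 (0.17), Ccne2 (−0.15), Lin54 (0.13) and Cdk4 (0.12). Of 173 regions in at least 2 libraries, 2 (1.16%) were in the KO libraries only and 15 (8.67%) in the controls only.

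The list of 24 p53 regulators and targets had 74 shared regions, again with 0 past the test, 39 (52.7%) above 0 and a median of 0.03. An unadjusted p under 0.05 (limma) was reached by 3 regions higher and 4 lower in KO, 9.46% of the 74 beside 7.63% of all shared regions, and the lowest adjusted p was 0.521. Ppm1d, a phosphatase that turns p53 signaling off, had a median log2 difference of −0.28 over 4 regions, and Trp53inp1, a p53-induced gene, one of 0.23 over 2. Next came Chek1 (−0.22), a kinase of the DNA damage checkpoint, Zmat3 (0.22), Trp53bp1 (−0.19) and Btg2 (−0.18). The regions of a gene did not all go the same way. Of the 4 Btg2 regions, the one with the lowest p (0.0147, unadjusted, limma) had a log2 difference of 0.445, against the sign of the median, and 1 of the 4 Ppm1d regions was at 0.352. In this list 2 of 123 regions (1.63%) were in the KO libraries only and 7 (5.69%) in the controls only.

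**Figure D5:**
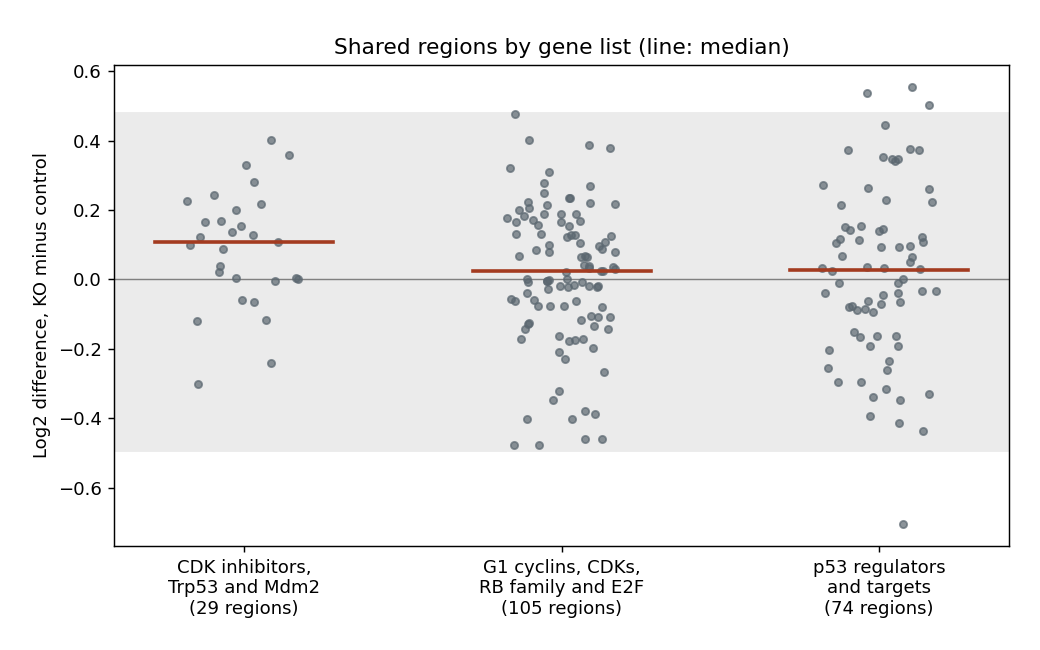
Log2 difference in fold, KO minus control (y axis), of every shared region of the 9 genes and of both gene lists, 1 point per region with a line at the median and the 5th to 95th percentile of all shared regions in gray. The medians were 0.11, 0.02 and 0.03, and no point passed the test.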

How the data were processed

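ATAC-Seq was analysed for 2 control and 2 KO libraries, grouped by genotype as labeled. The authors called peaks per library; the submitters' processing notes name Bowtie2, MACS2 and mm10, and versions are not given in the sources used here. The deposited lists hold 1 row per summit, with its fold (a ratio to background), −log10 p and −log10 q as the authors' peak caller gave them; the deposited display score was not used. Intervals on the autosomes and X were merged (1 bp; Python 3.11.15, numpy 2.4.6, pandas 2.3.3), and each region took the summit of highest −log10 p per library. Genes came from RefSeq GRCm38.p6, in a table without strands or exons. limma 3.58.1 (R 4.3.3; lmFit, eBayes with trend) compared log2 fold after quantile normalization over regions in all 4 libraries, with Benjamini-Hochberg adjustment; the study's own test used reads, which are not analysed here. Merging and test were checked on simulated data. The named genes are the 9 members, each with its strongest region, every region in 1 genotype only and the 5 regions of largest log2 difference, and at most 6 genes per list by median difference. The members, lists and tests were chosen with earlier results of these data known. One gene of the stem cell marker list is not reported here. Alternatives covered thresholds, list length, overlap, flank, normalization, measure, filters, block and each library left out. Figures used matplotlib 3.10.9.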

Additional observations from a re-analysis of the deposited data

How the results depend on the processing

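Of 115 values of the log2 difference of the 13 named shared regions under the alternatives, 111 kept their direction. With 2 libraries per genotype none passed the test (limma). The 111 do not measure stability, since many of the values could not turn. In a design of 2 libraries against 2, the replicate block gives the same difference as the main fit. The fold filter and the wider set of regions refitted nearly the same values for most regions. Among the 13 are the 5 picked for the largest difference. The 4 that turned came from leaving out a library: Cdkn1b at its start gave −0.10 without control 2 and −0.02 without KO 2 (highest 0.36), Cdkn1c at its end −0.00 without control 1 (highest 0.33), and Mdm2 at its start −0.01 without control 2 (highest 0.21). In size, 11 of the 13 moved by over 1.5 times when a library was left out. Beside those above, the ranges were −0.50 to −0.09 for Cdkn1b at 2.6 kb, 0.12 to 0.56 and 0.07 to 0.49 for Cdkn2a at 18.2 kb and at the p19Arf start, −0.42 to −0.07 for Cdkn2b, −0.16 to −0.07 for Cdkn2c, 0.12 to 0.34 for Cdkn2d, and 0.10 to 0.23 and 0.13 to 0.57 for Trp53 at −1.0 and 1.1 kb. Cdkn1a at 1.8 kb (0.17 to 0.33) and Cdkn1c at −3.0 kb (0.36 to 0.43) moved less. The count of shared regions of these genes past the test stayed at 0 in both directions under every alternative run. Over all regions, calls rose from 0 to 1 higher with the −log10 p in place of the fold and to 1 lower with median centring. With the replicate number as a block, 23 were higher and 42 lower; deviations of same-numbered libraries correlated at 0.01, so the numbers are not shown to pair the libraries. Regions in the KO libraries only went from 0 of 43 to 2 of 22 with the 100000 strongest summits, beside 1841 of 59223 in the genome. They ranged from 0 to 7 when a library was left out, beside 8645 to 61122 over the genome. These ranges include counts that rest on a single library, for which no share is given. Regions in the controls only went from 2 of 43 to 0 of 24 when the −log10 q had to reach 5, beside 4497 of 64025 in the genome. With the 100000 strongest summits they went to 0 of 22, beside 1631 of 59223. With lists of equal length they went to 1 of 38, beside 5967 of 125562, and with a flank of 1000 bp to 1 of 28, beside 8325 of 137553. Without a library they ranged from 4 to 11, beside 14089 to 63662 over the genome, again with counts that rest on a single library. Those in all libraries fell from 29 of 43 to 18 of 22 with the 100000 strongest summits, beside 42727 of 59223 in the genome. Ranks higher in both KO libraries went from 8 to 11 by fold and to 3 with summits ranked. Ranks lower went from 2 to 5 with summits ranked and to 1 by fold. With the 100000 strongest summits, 3 of 18 regions were higher and 3 lower, beside 10707 and 6317 of 42727 in the genome. Without read counts, depth is unknown, and a peak missing from a list may be a weak peak below its threshold.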
